A study of Mus musculus with 21 samples.

Results

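Neutrophil granule and alarmin genes were followed through 21 RNA-seq libraries of sorted inflammatory monocytes (IMs). The 10 genes, found by symbol in a count table of 23420 genes, fall into 3 classes. The azurophil class holds 4 genes for enzymes of the primary granules: Elane (neutrophil elastase), Mpo (myeloperoxidase), Prtn3 (proteinase 3) and Ctsg (cathepsin G). The specific granule class holds 4 genes for proteins of the later granules: Camp (the antimicrobial peptide precursor cathelicidin), Ltf (the iron-binding protein lactoferrin), Ngp (neutrophilic granule protein, related to the cystatins) and Lcn2 (lipocalin 2, which binds bacterial iron carriers). The alarmin class holds 2 genes, S100a8 and S100a9, for calcium-binding proteins that pair as calprotectin. Every one of the 10 genes had counts in every group.

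Granules are filled in order while granulocytes mature in the bone marrow. Azurophil enzymes are transcribed in promyelocytes and in the progenitors shared by granulocytes and monocytes, and specific granule proteins are transcribed at later stages, when the azurophil genes are being switched off. The proteins outlast their mRNA, so that a mature circulating cell can hold enzyme that it no longer transcribes, whereas S100a8 and S100a9 stay transcribed in mature neutrophils and in classical monocytes.

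The study compared tumor-infiltrating IMs (TIMs) in mouse models of squamous lung cancer with IMs from the bone marrow (BM IMs) of naïve, tumor-free mice of the same strain. KAL-LN2-E1 (LN2E1) cells, derived from a squamous lung line by passage in mice, were placed in the lungs of FVB mice at 500000 cells per mouse, and TIMs were taken from primary lung tumors (n = 5) and from lymph node metastases (n = 5). LN4K1 cells, derived from the KLN-205 line, were injected intravenously into DBA2 mice at 300000 cells per mouse, and TIMs were taken from the tumor-bearing lungs (n = 5). BM IMs came from naïve FVB (n = 3) and naïve DBA2 (n = 3) mice. The labels name no drug and no engineered allele in any group. Because the baseline was marrow of mice without tumors, the step from marrow to tissue and the presence of a tumor cannot be told apart, and cell line, strain, route and tissue all differ between the LN2E1 and LN4K1 models. The labels do not tie libraries to animals. The paper's methods call the 5 libraries of a tumor condition and the 3 of a baseline technical replicates. P-values thus measure the spread between these libraries, which may be technical and is not shown to be that between animals.

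Cells were enriched with a monocyte kit and sorted as CD45+ SiglecF- CD11b+ Ly6G- Ly6C hi. Total counts lay between 80772922 and 101043568 per library, and values are given as CPM, counts scaled to a common library size with TMM factors. The 3-count limit that a count of 0 allows stood between 0.0268 and 0.0405 CPM, for counting error only. The sort markers were present: Ly6c2 had a mean of 3023 CPM in FVB BM IMs, 2583 CPM in DBA2 BM IMs and between 1245 and 1483 CPM in the TIM groups, and Ccr2, the chemokine receptor that brings IMs into tissue, had group means between 714 and 2664 CPM. Ly6g, which marks neutrophils that the sort was meant to remove, was not used here. Siglec5, which RefSeq lists as an older name of both Siglecf and Siglece, stands in the table beside Siglece, with means of 4.79 and 6.38 CPM in FVB and DBA2 BM IMs, 2.47 CPM in primary tumors, 0.275 CPM in lymph nodes and 2.39 CPM in LN4K1 lungs. Of the libraries, 3 stood apart. Primary tumor replicate 4 had 73.8 CPM of the neutrophil chemokine receptor gene Cxcr2, against 13.2 to 19.2 CPM in the other primary tumor libraries, and 68.5 CPM of Mmp9, a gelatinase of neutrophil tertiary granules, against 5.37 to 9.99 CPM. Its mature neutrophil genes as a list summed to 2236 CPM, within the 1773 to 2487 CPM of the other primary tumor libraries. Lymph node replicate 1 had 241 CPM of the basophil protease gene Prss34, which had 0 counts in the other lymph node libraries, and 137 CPM of Mcpt8, another basophil protease gene, against 3.41 to 10.2 CPM. LN4K1 lung replicate 3 differed from the other lung libraries by 547 to 1109 in mean chi-square per gene, where the others differed among themselves by 53.0 to 314. Its inflammatory monocyte genes summed to 126430 CPM, against 72608 to 86595 CPM in the others, and its epithelial genes to 7.75 CPM, against 112 to 155 CPM.

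Some of the genes lie close together. On GRCm38, Prtn3 (chromosome 10, 79874476 to 79883174) ends 3072 bases before Elane (79886247 to 79888215), both on the plus strand. S100a8 (chromosome 3, 90668978 to 90670035, plus strand) and S100a9 (90692632 to 90695721, minus strand) are separated by 22596 bases. Camp, Ngp and Ltf share chromosome 9, with gaps of 570129 and 596258 bases. The RefSeq promoter windows of all 10 genes were read from GRCm38.p6, from 250 bases before to 50 bases after the start of transcription. The windows of Elane and Prtn3 are shown because their transcripts parted in the TIMs, that of Mpo as the azurophil gene with the highest CPM in BM IMs, and those of S100a8 and S100a9 because their ratio changed. They lie at chr10:79886062-79886361 (plus strand) for Elane, chr10:79879417-79879716 (plus) for Prtn3, chr11:87793534-87793833 (plus) for Mpo, chr3:90668821-90669120 (plus) for S100a8 and chr3:90695672-90695971 (minus) for S100a9. Each is written from 5′ to 3′ in the direction of the gene, with capitals for 4 words searched on both strands.
Elane: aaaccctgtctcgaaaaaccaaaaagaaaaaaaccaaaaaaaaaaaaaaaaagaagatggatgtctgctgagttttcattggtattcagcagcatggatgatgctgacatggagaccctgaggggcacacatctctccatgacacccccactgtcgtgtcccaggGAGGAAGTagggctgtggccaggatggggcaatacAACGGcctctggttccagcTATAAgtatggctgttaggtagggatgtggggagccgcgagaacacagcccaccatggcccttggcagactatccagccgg
Prtn3: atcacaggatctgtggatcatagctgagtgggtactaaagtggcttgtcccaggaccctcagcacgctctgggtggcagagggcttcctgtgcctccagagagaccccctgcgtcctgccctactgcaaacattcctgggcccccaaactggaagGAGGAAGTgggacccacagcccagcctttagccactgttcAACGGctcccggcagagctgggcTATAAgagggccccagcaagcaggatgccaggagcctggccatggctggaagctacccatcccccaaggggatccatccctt
Mpo: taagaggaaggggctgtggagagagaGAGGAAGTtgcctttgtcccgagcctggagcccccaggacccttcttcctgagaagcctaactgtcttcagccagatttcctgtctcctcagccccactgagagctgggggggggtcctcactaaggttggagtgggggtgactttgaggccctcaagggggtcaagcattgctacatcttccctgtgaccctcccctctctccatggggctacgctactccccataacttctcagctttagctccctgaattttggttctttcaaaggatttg
S100a8: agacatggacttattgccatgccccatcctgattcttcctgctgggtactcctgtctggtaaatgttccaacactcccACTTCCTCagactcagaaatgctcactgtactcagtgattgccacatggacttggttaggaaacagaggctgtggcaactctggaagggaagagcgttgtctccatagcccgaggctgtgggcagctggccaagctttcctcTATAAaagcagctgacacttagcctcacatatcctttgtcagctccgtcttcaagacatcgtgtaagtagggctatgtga
S100a9: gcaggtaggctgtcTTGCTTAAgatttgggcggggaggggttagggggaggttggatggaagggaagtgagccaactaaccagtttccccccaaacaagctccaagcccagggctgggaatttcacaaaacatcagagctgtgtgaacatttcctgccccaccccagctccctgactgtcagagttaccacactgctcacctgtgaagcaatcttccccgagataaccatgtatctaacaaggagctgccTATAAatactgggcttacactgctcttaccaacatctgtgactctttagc
The words were GAGGAAGT, a core of PU.1 sites, and AACGG, a core of MYB sites. The others were TTGCNNAA, a core of C/EBP sites, and TATAA, the core of the TATA box. All 4 words were chosen with the sequences in view, and no word overlapped another in these 5 windows. GAGGAAGT stood in 4 of 10 windows (Elane, Prtn3, Mpo and, on the opposite strand, S100a8) and in 3.2% of 32851 promoters of the same length. AACGG stood in 2 of 10 (Elane and Prtn3), against 17.4% of promoters. In Elane and Prtn3 the same 3 words followed one another in the same order, with GAGGAAGT at positions -85 and -95, AACGG at -50 and -55, and TATAA at -31 and -32 from the start. TATAA stood in 5 of 10 windows (24.9% of promoters), with S100a8 at -30 and S100a9 at 0, and TTGCNNAA in 4 of 10, namely Ltf, Ngp, Lcn2 and S100a9 (10.8% of promoters). Matches describe these letters and are not shown to be bound sites.

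The genes were abundant in BM IMs. Together they took 0.603% to 0.814% of a library's counts in FVB BM IMs and 0.386% to 0.469% in DBA2 BM IMs, against 0.0141% to 0.0853% in primary tumor TIMs, 0.00496% to 0.0215% in lymph node TIMs and 0.0402% to 0.118% in LN4K1 lung TIMs. Levels per length are given as RPKM, CPM divided by the joined length of all annotated exons of a gene in kilobases, not of 1 transcript. The order in FVB BM IMs was led by S100a9 with 1357 ± 259 (SD, n = 3), 17th of 21737 genes. Ngp (1085 ± 101) and S100a8 (1045 ± 216) followed, and their means differed by less than their spread. The order closed with Ltf (99.8 ± 23.7) and Lcn2 (55.2 ± 3.12). In DBA2 BM IMs Elane (491 ± 41.9 RPKM) and Mpo (472 ± 28.7) had the highest means, which overlapped in spread with each other and with S100a9 (456 ± 86.7), while Prtn3 stood 6th (165 ± 9.62) and Ctsg 8th (103 ± 8.3). In all 3 TIM groups S100a8 had the highest mean of the 10 genes per length, with 197 ± 161 RPKM in primary tumors, 102 ± 54.8 in lymph nodes and 340 ± 183 in LN4K1 lungs (n = 5 each). In primary tumors S100a9 (188 ± 248 RPKM) differed from it by less than the spread. Primary tumor replicate 4 had more S100a9 (629 RPKM) than S100a8 (469 RPKM). Mpo went from 6th place in FVB BM IMs to 10th in primary tumor TIMs (0.686 ± 0.631 RPKM), and Camp from 4th in FVB BM IMs to 10th in lymph node TIMs.

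**Figure D1:**
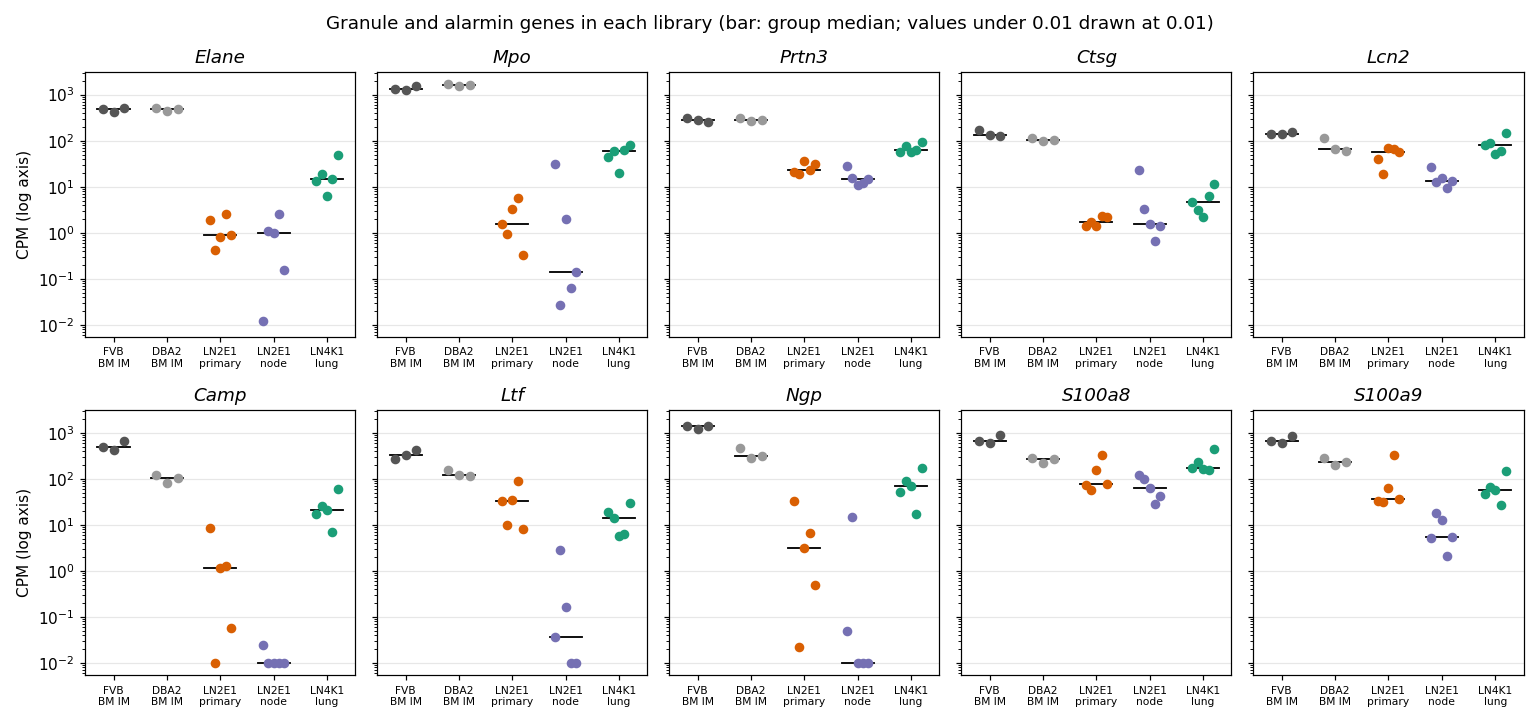
CPM of each gene in every library on a log axis, 1 panel a gene, with 1 point a library and a bar at the group median, where values under 0.01 CPM, 0 included, stand at 0.01, by group from FVB BM IMs to LN4K1 lung TIMs. Elane stood at 429 to 524 CPM in FVB BM IMs and at 0.43 to 2.55 CPM in primary tumor TIMs, whereas Lcn2 in LN4K1 lung TIMs (52.4 to 147 CPM) lay across its range in DBA2 BM IMs (59.9 to 113 CPM).

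Between the marrow of the 2 strains no azurophil gene passed the test in edgeR with all libraries, and all 6 genes of the later classes did. Elane had 499, 429 and 524 CPM in the FVB BM IM libraries and 519, 438 and 494 CPM in the DBA2 ones. Mpo had 1323, 1256 and 1538 CPM in FVB and 1710, 1514 and 1624 CPM in DBA2 BM IMs. Prtn3 had 314, 288 and 251 CPM in FVB and 305, 272 and 283 CPM in DBA2 BM IMs. The ranges of these 3 genes overlapped between strains, and none passed the test. Ctsg had 172, 134 and 125 CPM in FVB and 116, 99.4 and 104 CPM in DBA2 BM IMs. It was lower in every DBA2 library and did not pass the test (log2 fold change -0.41 ± 0.13 SE, adjusted p = 0.0608). When FVB replicate 3 was left out, Ctsg passed (adjusted p = 0.0165).

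The 4 specific granule genes and the 2 alarmin genes were lower in DBA2 than in FVB BM IMs. These were 6 of 10 genes, while 9.57% of the 12905 genes tested were lower and 11.5% higher at an adjusted p under 0.05. Camp had 483, 429 and 672 CPM in FVB and 124, 82.9 and 105 CPM in DBA2 BM IMs (log2 fold change -2.32 ± 0.21, adjusted p = 0.000347). Ngp had 1380, 1185 and 1412 CPM in FVB and 481, 286 and 319 CPM in DBA2 (-1.85 ± 0.2, adjusted p = 0.000728). Ltf had 273, 326 and 433 CPM in FVB and 153, 119 and 117 CPM in DBA2 (-1.39 ± 0.19, adjusted p = 0.00244). No DBA2 library of these 3 genes reached the lowest FVB library. Lcn2, with 142, 138 and 154 CPM in FVB and 113, 64.4 and 59.9 CPM in DBA2, was closest to the threshold (-0.85 ± 0.23, adjusted p = 0.0348) and kept its call in 1 of 6 fits that left out a library. S100a8 had 677, 605 and 893 CPM in FVB and 284, 227 and 266 CPM in DBA2 (-1.47 ± 0.17, adjusted p = 0.00104). S100a9 had 674, 593 and 857 CPM in FVB and 286, 197 and 231 CPM in DBA2 (-1.55 ± 0.19, adjusted p = 0.00122). Without overlap, 7 of 10 genes were lower in DBA2, Ctsg included, against 21.5% of genes tested. With 3 libraries against 3 an exact two-sided permutation test cannot go below p = 0.1. A fit of all 5 groups together, which shares 1 estimate of the spread with the more variable TIMs, called 0 of the 6 genes. Its lowest adjusted p was 0.109, with 2 of 10 genes at an unadjusted p under 0.05. DESeq2 called 7 of 10 genes lower, the azurophil gene Ctsg among them. None passed the study's thresholds in edgeR, which 0.124% of genes passed in this direction.

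In LN2E1 primary tumor TIMs all 10 genes were lower than in FVB BM IMs, with no overlap in any of them. The background was 28.6% of 14569 genes lower at an adjusted p under 0.05 (33.3% higher) and 27.3% lower without overlap. The median log2 fold change was -4.91 over the 10 genes and 0.08 over all genes tested. In edgeR the 4 azurophil genes also passed the stricter thresholds of the study (adjusted p under 0.0001 and a log2 fold change of more than 1 in size), which 5.18% of genes passed in this direction. In DESeq2 7 of the 10 genes did, with Lcn2, Camp and Ngp besides. Fold changes were not shrunk here with either tool, whereas the paper applied its fold change limit after shrinkage in DESeq2. In bulk libraries, fewer cells that express a gene and less of its RNA per cell cannot be told apart.

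Elane fell to 1.85, 0.43, 0.814, 2.55 and 0.884 CPM in the primary tumor libraries, a mean 370-fold under FVB BM IMs (log2 fold change -8.55 ± 0.53, adjusted p = 1.83e-06). Mpo fell to 1.52, 0.95, 3.27, 5.68 and 0.326 CPM, 584-fold under FVB BM IMs (-9.21 ± 0.81, adjusted p = 1.57e-05). Ctsg fell to 1.37, 1.75, 1.4, 2.33 and 2.19 CPM, 79.7-fold under (-6.33 ± 0.21, adjusted p = 8.36e-08), and was the most even of the 4 across libraries. Prtn3, the gene next to Elane, kept more of its RNA, with 20.8, 18.7, 35.5, 22.7 and 31.1 CPM, 11-fold under FVB BM IMs (-3.48 ± 0.21, adjusted p = 1.21e-06). Each primary tumor library thus had more Prtn3 than Elane, where each FVB BM IM library had less. Reads from 159 exonic bases of Prtn3 and 512 of Mpo can also come from genes on the opposite strand (Plppr3 and Gm11505), since the libraries carried no strand.

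The specific granule genes were uneven among the primary tumor libraries. Camp had 8.71, 0, 1.16, 1.3 and 0.0581 CPM, so that it had 0 counts in replicate 2 and the most in replicate 1 (fold 235 between means, log2 fold change -7.9 ± 1.34, adjusted p = 0.000825). Ngp had 33.6, 0.0226, 3.19, 6.6 and 0.488 CPM and was high and low in the same libraries as Camp (151-fold, -7.26 ± 1.46, adjusted p = 0.00217). Ltf had 32.7, 10.0, 34.3, 89.9 and 7.99 CPM (9.84-fold, -3.32 ± 0.69, adjusted p = 0.00257), with its highest value in replicate 4, without which its mean was 21.3 CPM. Lcn2 had 39.5, 18.9, 70.6, 65.4 and 56.6 CPM, the smallest difference of the 10 genes (2.88-fold, -1.55 ± 0.35, adjusted p = 0.0039).

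For the alarmins, S100a8 had 73.1, 56.6, 153, 325 and 75.8 CPM in primary tumor TIMs (5.31-fold lower, -2.43 ± 0.53, adjusted p = 0.00335). S100a9 had 33.1, 31.7, 62.7, 328 and 35.9 CPM (7.2-fold lower, -2.87 ± 0.78, adjusted p = 0.0104). Replicate 4, the library with the most Cxcr2 and Mmp9, was the highest for both, and without it the means were 89.5 ± 42.9 CPM for S100a8 and 40.8 ± 14.7 CPM for S100a9 (SD, n = 4), and the log2 fold changes -3.04 and -4.13 (adjusted p = 0.000157 and 9.72e-06). The mean of Mpo without it was 1.52 ± 1.27 CPM. S100a9 lost its call when FVB replicate 3 was left out (adjusted p = 0.0511), and no other of the 10 genes lost its call when a library was left out of this comparison.

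**Figure D2:**
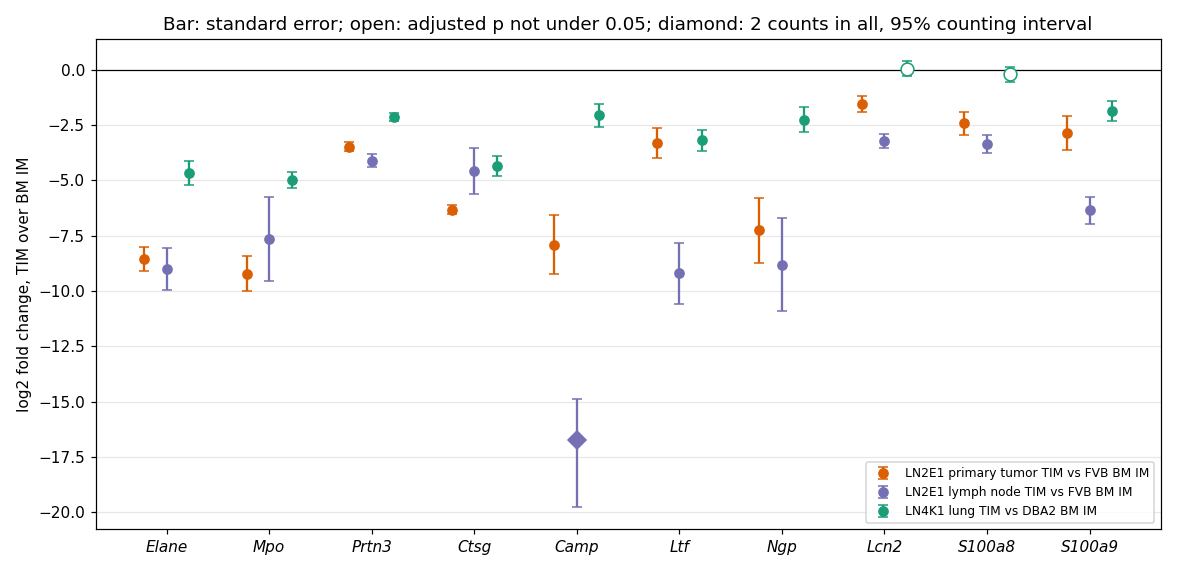
Log2 fold change of each gene in TIMs over BM IMs of the same strain, with standard errors, for LN2E1 primary tumors, LN2E1 lymph nodes and LN4K1 lungs. Open points did not pass an adjusted p under 0.05, which were Lcn2 (0.04) and S100a8 (-0.22) in LN4K1 lungs, and the diamond for Camp in lymph nodes is a ratio of mean CPM with a 95% counting interval in place of a fitted value. The values of Camp, Ltf and Ngp in lymph nodes are descriptions, since these genes reached the count filter through their marrow level.

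In lymph node TIMs 7 of the 10 genes reached the level of the count filter in enough lymph node libraries to be tested whichever way they differed, and these 7 were again lower than in FVB BM IMs. The background was 17.2% of 13273 genes lower at an adjusted p under 0.05 (20.2% higher) and 22.8% lower without overlap. The other 3, Camp, Ltf and Ngp, entered the test through their marrow level and could come out only as lower, so their values are given as a description. This comparison shares its FVB BM IM libraries with the previous one. The median log2 fold change of the 7 genes was -4.58, against -0.04 over all genes tested. None of the 7 overlapped with marrow. Of 50 values, 13 were at or under 3 counts, in Elane, Mpo, Camp, Ltf and Ngp. Of the 7 genes, Elane, Prtn3, Lcn2 and S100a9 also passed the study's thresholds in edgeR, which 1.7% of genes passed in this direction, and S100a8 passed them besides in DESeq2. When any 1 of the FVB BM IM libraries or lymph node replicate 3 or 5 was left out, Prtn3 was the 1 gene of the 7 still past them, and all 7 passed without lymph node replicate 1.

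Elane had 0.0121, 1.07, 0.998, 2.49 and 0.154 CPM in the lymph node libraries (512-fold lower, -9.0 ± 0.96, adjusted p = 6.66e-05). Mpo had 31.8, 0.0265, 1.94, 0.0616 and 0.143 CPM (202-fold lower, -7.65 ± 1.91, adjusted p = 0.0127). Ctsg had 23.2, 3.25, 1.57, 0.653 and 1.37 CPM (24.0-fold lower, -4.58 ± 1.03, adjusted p = 0.00614). Replicate 1, the library with basophil protease RNA, was far above the others in Mpo and Ctsg and the lowest in Elane, and without it the group means were 0.542 CPM for Mpo and 1.71 CPM for Ctsg. Prtn3 was the steadiest azurophil gene, at 28.5, 15.7, 11.1, 11.8 and 15 CPM (17.3-fold lower, -4.11 ± 0.29, adjusted p = 5.01e-06).

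Camp, the cathelicidin gene, was all but undetected in lymph node TIMs, with 2 counts in replicate 1 and 0 in the other 4 libraries. Set against 528 CPM in FVB BM IMs, the ratio of means was 107598, with a counting interval from 29786 to 888475 (exact Poisson, 95%). Ltf had 0.0363, 2.8, 0.166, 0 and 0 CPM, a mean 574-fold under that of FVB BM IMs. Ngp had 0.0484, 14.9, 0, 0 and 0 CPM, with a mean 443-fold under. Replicate 2 held nearly all of the Ltf and Ngp counts, along with the most Mmp9 of the lymph node libraries (3.93 CPM). Lcn2 was detected throughout, at 26.8, 12.7, 15.5, 9.31 and 13.1 CPM (9.34-fold lower, -3.22 ± 0.3, adjusted p = 2.59e-05).

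The alarmin genes parted in lymph node TIMs. S100a8 had 120, 98.2, 64.6, 28.3 and 42.8 CPM (10.3-fold lower, -3.36 ± 0.41, adjusted p = 0.000169). S100a9 had 5.14, 17.9, 12.5, 2.16 and 5.5 CPM (82.1-fold lower, -6.36 ± 0.61, adjusted p = 3.31e-05). Every lymph node library had more S100a8 than S100a9, where the FVB BM IM libraries had nearly equal counts.

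In LN4K1 lung TIMs 8 of 10 genes were lower than in DBA2 BM IMs, beside 11.0% of 13624 genes (13.9% higher), and the same 8 did not overlap, beside 14.9%. The median log2 fold change was -2.2, against 0.03 over all genes tested. Mpo and Prtn3 passed the study's thresholds in edgeR, which 1.76% of genes passed in this direction, and 5 genes passed them in DESeq2 (the 4 azurophil genes and Ltf). In edgeR this count was 4, the azurophil genes, without lung replicate 3 or without lung replicate 5, 1 without lung replicate 2, and 0 without lung replicate 1 or 4 or any 1 of the DBA2 BM IM libraries. Without lung replicate 3, which stood apart, 8 genes were still lower at an adjusted p under 0.05. All 10 genes were above the 3-count limit in all 5 libraries.

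Elane had 13, 19.1, 6.36, 14.8 and 47.6 CPM in the LN4K1 lung libraries (24.0-fold lower, -4.67 ± 0.54, adjusted p = 0.000225). Mpo had 45.2, 59.8, 20.1, 62.4 and 80.1 CPM (30.2-fold lower, -4.99 ± 0.37, adjusted p = 1.48e-05). Ctsg had 4.71, 3.08, 2.19, 6.22 and 11.2 CPM (19.4-fold lower, -4.36 ± 0.45, adjusted p = 0.00012). These 3 enzymes were lowest in replicate 3 and highest in replicate 5, and none of the libraries came near the marrow level. Without replicate 3 their means were 23.6 ± 16.2, 61.9 ± 14.3 and 6.31 ± 3.52 CPM (SD, n = 4). Prtn3 again had the smallest difference of its class, with 55.8, 75.2, 56.3, 63.1 and 93.7 CPM (4.16-fold lower, -2.14 ± 0.17, adjusted p = 2.55e-05).

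Of the specific granule genes, Ltf differed most in the lung, at 19.3, 14.5, 5.79, 6.32 and 29.3 CPM (8.63-fold lower, -3.19 ± 0.48, adjusted p = 0.0012). Camp had 17.2, 26.1, 21.2, 7.05 and 59.5 CPM (3.97-fold lower, -2.07 ± 0.52, adjusted p = 0.0176). Ngp had 51.1, 90.9, 69.3, 17.5 and 172 CPM (4.51-fold lower, -2.26 ± 0.55, adjusted p = 0.0155). Camp and Ngp were lowest in replicate 4 and highest in replicate 5. Lcn2, with 80.2, 91.1, 52.4, 60.7 and 147 CPM, overlapped with DBA2 BM IMs and did not pass the test (0.04 ± 0.34, adjusted p = 0.947).

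S100a9 had 47.8, 65.4, 56.9, 26.9 and 152 CPM in LN4K1 lung TIMs (3.41-fold lower, -1.86 ± 0.44, adjusted p = 0.0142). S100a8, at 170, 230, 166, 155 and 456 CPM, overlapped with its marrow range of 227 to 284 CPM (-0.22 ± 0.34, adjusted p = 0.692). Replicate 5 decided this value: without it the mean was 181 ± 33.8 CPM (SD, n = 4) and S100a8 passed the test (-0.59, adjusted p = 0.0414). That library was the highest of its group for all 10 genes, as DBA2 BM IM replicate 1 was in its own group, and without that marrow library 5 of the 10 genes were lower in the lung, since Camp (adjusted p = 0.0616), Ngp (0.0616) and S100a9 (0.0558) no longer passed. These 3 genes also failed to pass in a fit of all 5 groups together, which called 5 genes lower. The smallest p that an exact permutation test of 5 libraries against 3 can give is 0.0357. It was reached by every gene without overlap in the 3 tumor comparisons, where Camp, Ltf and Ngp in lymph nodes are descriptions only.

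The change from marrow was larger in LN2E1 primary tumors than in LN4K1 lungs for 8 of 10 genes when the difference itself was tested, while 13.3% of 15182 genes had a difference in this direction and 13.2% in the other. In log2 units, the primary tumor change minus the lung change was -3.86 ± 0.77 for Elane (adjusted p = 0.00255) and -4.2 ± 0.85 for Mpo (adjusted p = 0.0028). It was -1.33 ± 0.29 for Prtn3 (adjusted p = 0.00426) and -1.95 ± 0.52 for Ctsg (adjusted p = 0.0129). All 4 azurophil genes therefore passed. Among specific granule genes it was -5.8 ± 1.51 for Camp (adjusted p = 0.0112), -4.98 ± 1.61 for Ngp (adjusted p = 0.0326) and -1.57 ± 0.53 for Lcn2 (adjusted p = 0.0403). Ltf, at -0.11 ± 0.91 (adjusted p = 0.979), was close to 0 with a wide error. For the alarmins it was -2.19 ± 0.69 for S100a8 (adjusted p = 0.0294) and -0.99 ± 0.98 for S100a9 (adjusted p = 0.493), and the latter became -2.33 (adjusted p = 0.0129) without primary tumor replicate 4. When each of the 16 libraries was left out in turn, Elane, Mpo, Prtn3, Ctsg and Camp always passed, Ngp passed 10 times, S100a8 11 times and Lcn2 7 times. A fit of all 5 groups together called 5 differences (Elane, Prtn3, Camp, Lcn2 and S100a8). For the 6 genes of the later classes the marrow baselines differed between strains, as given above, and lower marrow levels in DBA2 mice enter this difference.

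Between the LN2E1 sites, 9 of the 10 genes were tested, of which 5 reached the level of the filter in all libraries of both sites (Prtn3, Ctsg, Lcn2, S100a8 and S100a9). Of these 5, Lcn2 (-1.69 ± 0.37, adjusted p = 0.0129) and S100a9 (-3.51 ± 0.82, adjusted p = 0.019) were lower in lymph node than in primary tumor TIMs, beside 5.55% of 13488 genes (6.15% higher). S100a9 did not overlap between sites (exact permutation p = 0.00794, the smallest that 5 against 5 libraries can give, while 8.84% of genes tested were lower without overlap), and Lcn2 did (exact permutation p = 0.0159). Without primary tumor replicate 4 the difference in S100a9 was -2.24 ± 0.53 (adjusted p = 0.0315). Ltf, which was tested through its primary tumor level, had 7.99 to 89.9 CPM in primary tumors and 0 to 2.8 CPM in lymph nodes, given as a description. No azurophil gene passed: the log2 difference was -0.45 for Elane (adjusted p = 0.827), 1.54 for Mpo (0.59), -0.64 for Prtn3 (0.171) and 1.74 for Ctsg (0.234). The values for Mpo and Ctsg rested on lymph node replicate 1, without which they were -2.1 and -0.07. Ngp (-1.54, adjusted p = 0.69) and S100a8 (-0.94, adjusted p = 0.283) did not pass, and Camp did not pass the filter on low counts. None of the 9 passed the study's thresholds, which 0.0297% of genes passed in this direction, and 4 had an unadjusted p under 0.05.

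A ratio of 2 genes within a library does not depend on how the libraries were scaled. Both ratios below were chosen after the levels were seen, and p-values were adjusted over their 6 tests. The adjustment does not cover that choice. A p of 0.0357 is the smallest that 5 libraries against 3 can give, and is reached whenever the groups do not overlap. Prtn3 and Elane, neighbours with the same order of promoter words, had a ratio of raw counts of 0.629, 0.671 and 0.478 in FVB BM IMs and 0.587, 0.62 and 0.573 in DBA2 BM IMs. In primary tumor TIMs the ratio was 11.2, 43.6, 43.6, 8.9 and 35.2. In LN4K1 lung TIMs it was 4.29, 3.94, 8.84, 4.25 and 1.97. Every TIM library was thus above every BM IM library of its strain, with a mean log2 difference of 5.3 in primary tumors and 2.81 in LN4K1 lungs (exact permutation p = 0.0357, adjusted p = 0.0429, for each). In lymph node TIMs it was 14.6, 11.1, 4.74 and 97.3 in replicates 2 to 5, and 2356 in replicate 1, where it rested on 1 count of Elane (exact binomial 95% interval 422 to 93096). The log2 difference there was 6.25 (exact permutation p = 0.0357, adjusted p = 0.0429) and 4.82 without replicate 1.

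The ratio of S100a8 to S100a9 was 1.0, 1.02 and 1.04 in FVB BM IMs and 0.991, 1.16 and 1.15 in DBA2 BM IMs, so that both subunit genes of calprotectin had nearly equal counts in marrow. In lymph node TIMs it was 23.3, 5.5, 5.17, 13.1 and 7.78, above marrow in 5 of 5 libraries (log2 difference 3.18, exact permutation p = 0.0357, adjusted p = 0.0429). In LN4K1 lung TIMs it was 3.56, 3.52, 2.93, 5.78 and 3.01, also above marrow in 5 of 5 (1.73, exact permutation p = 0.0357, adjusted p = 0.0429). In primary tumor TIMs it was 2.21, 1.79, 2.43, 0.99 and 2.11, above marrow in 4 of 5, with the exception of replicate 4, and did not pass (0.83, exact permutation p = 0.143, adjusted p = 0.143). Without replicate 4 that difference was 1.05. The library at 0.99 was the one with 73.8 CPM of Cxcr2. The part of other cells in these ratios was not tested.

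**Figure D3:**
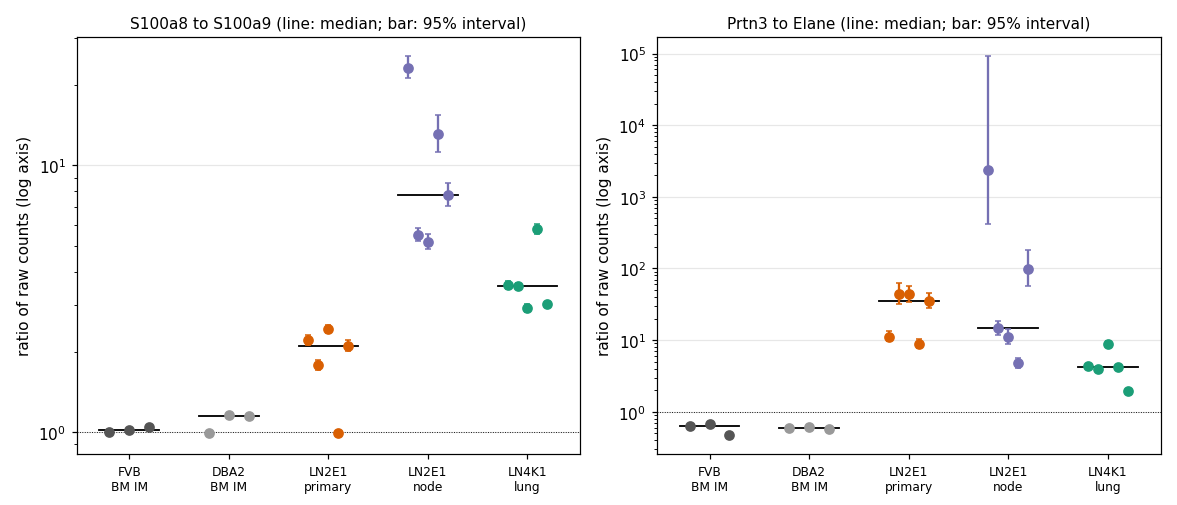
Ratio of raw counts of S100a8 to S100a9 and of Prtn3 to Elane in each library, on log axes, with the median of each group as a line and the exact 95% interval of each library as a bar. Prtn3 to Elane stood at 0.478 to 0.671 in BM IMs and at 1.97 or more in every TIM library, and the wide bar in lymph nodes is the library with 1 count of Elane.

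The libraries that were high or low tended to be so for several genes. LN4K1 lung replicate 5 and DBA2 BM IM replicate 1 were each the highest of their group for all 10 genes, and FVB BM IM replicate 3 for 8. Primary tumor replicate 4 was the highest of its group for 6 (Elane, Mpo, Ctsg, Ltf, S100a8 and S100a9), and replicate 2 the lowest for 7. Lymph node replicate 1 was the highest of its group for 6. Over the 5 groups, FVB BM IMs had the highest mean for 8 genes and DBA2 BM IMs for Mpo and Prtn3, whose ranges overlapped between strains. Lymph node TIMs had the lowest mean for 8 genes and primary tumor TIMs for Mpo and Ctsg, which without lymph node replicate 1 were also lowest in lymph nodes (0.542 CPM against 2.35 for Mpo and 1.71 against 1.81 for Ctsg). For Lcn2, LN4K1 lung TIMs came before DBA2 BM IMs, which was the case for no other gene, and the ranges of both groups overlapped.

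Other granule genes moved both ways. Of 25 other genes of granule and secreted proteins in the table, 24 were tested in each tumor comparison, with 7 higher and 10 lower in primary tumors, 6 higher and 8 lower in lymph nodes, and 5 higher and 8 lower in LN4K1 lungs. Their median log2 fold changes were -0.34, -0.33 and 0.2. Genes of this list at 0 CPM in lymph nodes, and Itgb2l at 0.00663 CPM in primary tumors, entered these tests through their marrow level. They could come out only as lower. Over all genes tested, 33.3% were higher and 28.6% lower in primary tumors. The shares were 20.2% and 17.2% in lymph nodes and 13.9% and 11.0% in LN4K1 lungs, and they stand beside the counts of every list below. Fcnb, the secreted pattern recognition protein ficolin B, fell in each (-4.48 ± 0.19, -4.42 ± 0.24 and -3.54 ± 0.23, with adjusted p = 1.69e-07, 9.11e-07 and 6.97e-06). Ms4a3, a gene of granulocyte and monocyte progenitors, fell in primary tumors (-7.38 ± 0.79, adjusted p = 5.2e-05) and LN4K1 lungs (-3.09 ± 0.42, adjusted p = 0.000666). In lymph nodes it had 19.5 CPM in replicate 1 and 0 counts in the others (-3.65 ± 2.01, adjusted p = 0.189). Adam8, a metalloprotease stored in granules and also made by monocytes, rose in each. Its mean was 17.7 CPM in FVB BM IMs, 785 CPM in primary tumors and 541 CPM in lymph nodes (5.45 ± 0.33 and 4.93 ± 0.32, adjusted p = 1.25e-06 and 2.98e-06), and it went from 17.1 to 99.7 CPM in LN4K1 lungs (2.46 ± 0.46, adjusted p = 0.0039).

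Genes that process, pack and inhibit the granule proteases also moved both ways. Of this list, 5 were higher and 1 lower of 10 tested in primary tumors. The counts were 4 higher and 2 lower of 9 in lymph nodes, and 5 higher and 1 lower of 10 in LN4K1 lungs. Among the lower genes in lymph nodes, BC100530 (0.0153 CPM) entered the test through its marrow level and could come out only as lower. Ctsc, the peptidase that activates elastase, proteinase 3 and cathepsin G, had 1036 CPM in FVB BM IMs, 2446 CPM in primary tumors and 4132 CPM in lymph nodes (1.22 ± 0.14 and 2.0 ± 0.25, adjusted p = 6.67e-05 and 0.000174), and went from 1281 to 2884 CPM in LN4K1 lungs (1.09 ± 0.18, adjusted p = 0.00179). Srgn, the proteoglycan that binds proteases in granules, rose by 2.46 ± 0.16, 2.93 ± 0.16 and 2.26 ± 0.31 (adjusted p = 1.91e-06, 1.25e-06 and 0.000656). Serpinb1a, an inhibitor of elastase, proteinase 3 and cathepsin G, fell with the proteases. Its means were 173 CPM in FVB BM IMs, 31.1 CPM in primary tumors and 25.5 CPM in lymph nodes, with 121 CPM in DBA2 BM IMs and 41.4 CPM in LN4K1 lungs (-2.5 ± 0.15, -2.76 ± 0.18 and -1.62 ± 0.15, adjusted p = 9.76e-07, 2.66e-06 and 6.85e-05). Slpi, a secreted inhibitor of elastase and cathepsin G, passed in none of the 3 (0.43, 0.53 and 0.25, adjusted p = 0.0743, 0.113 and 0.175).

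Receptors and partners of the secreted products that passed were higher, with 1 exception in lymph nodes. The exception was Ager, at 0.0653 CPM in lymph nodes and 1.06 CPM in FVB BM IMs. It entered that test through its marrow level and could come out only as lower. There were 6 higher and 0 lower of 9 in primary tumors, 5 higher and 1 lower of 8 in lymph nodes, and 5 higher and 0 lower of 8 in LN4K1 lungs. Cd14, a co-receptor of Toll-like receptors, rose by 3.03 ± 0.2, 2.91 ± 0.21 and 2.64 ± 0.27 (adjusted p = 2.07e-06, 5.92e-06 and 0.00012). Tlr4, through which calprotectin can signal, rose by 2.4 ± 0.2, 2.18 ± 0.25 and 2.28 ± 0.19 (adjusted p = 7.06e-06, 0.000106 and 3.19e-05). Fpr2, a receptor for cathelicidin peptides, rose by 1.42 ± 0.1, 1.7 ± 0.21 and 2.75 ± 0.27 (adjusted p = 2.17e-06, 0.000182 and 7.69e-05).

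Among 8 regulators of granule genes, 2 were higher and 5 lower in primary tumors, and 2 higher and 4 lower in lymph nodes. In LN4K1 lungs 1 was higher and 2 lower. The lower genes of both LN2E1 sites include Gfi1, near the floor at 0.0772 CPM in primary tumors and 0.00985 CPM in lymph nodes. In lymph nodes Gfi1 entered the test through its marrow level (1.84 CPM) and could come out only as lower. Myb, a transcription factor of progenitors, fell in each (-4.73 ± 0.47, -4.78 ± 1.2 and -4.3 ± 0.29, adjusted p = 2.74e-05, 0.0107 and 8.56e-06). Runx1 rose in primary tumors (1.22 ± 0.14, adjusted p = 7.49e-05) and lymph nodes (1.0 ± 0.12, adjusted p = 0.000149). In LN4K1 lungs Runx1 did not pass (0.43 ± 0.2, adjusted p = 0.148). Cebpd fell in primary tumors (-0.71 ± 0.09, adjusted p = 0.000112) and lymph nodes (-1.56 ± 0.12, adjusted p = 7.82e-06), and rose in LN4K1 lungs (0.95 ± 0.17, adjusted p = 0.00331). Cebpe, the factor that drives specific granule genes, was low throughout, with a mean of 3.19 CPM in FVB and 14.1 CPM in DBA2 BM IMs. It fell in primary tumors (-1.38 ± 0.36, adjusted p = 0.00756) and LN4K1 lungs (-1.53 ± 0.19, adjusted p = 0.00033) and did not pass in lymph nodes (-0.99 ± 0.6, adjusted p = 0.236). Between strains, Cebpe was higher in DBA2 BM IMs (2.16 ± 0.36, adjusted p = 0.00582), in which Camp, Ltf and Ngp were lower.

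**Figure D4:**
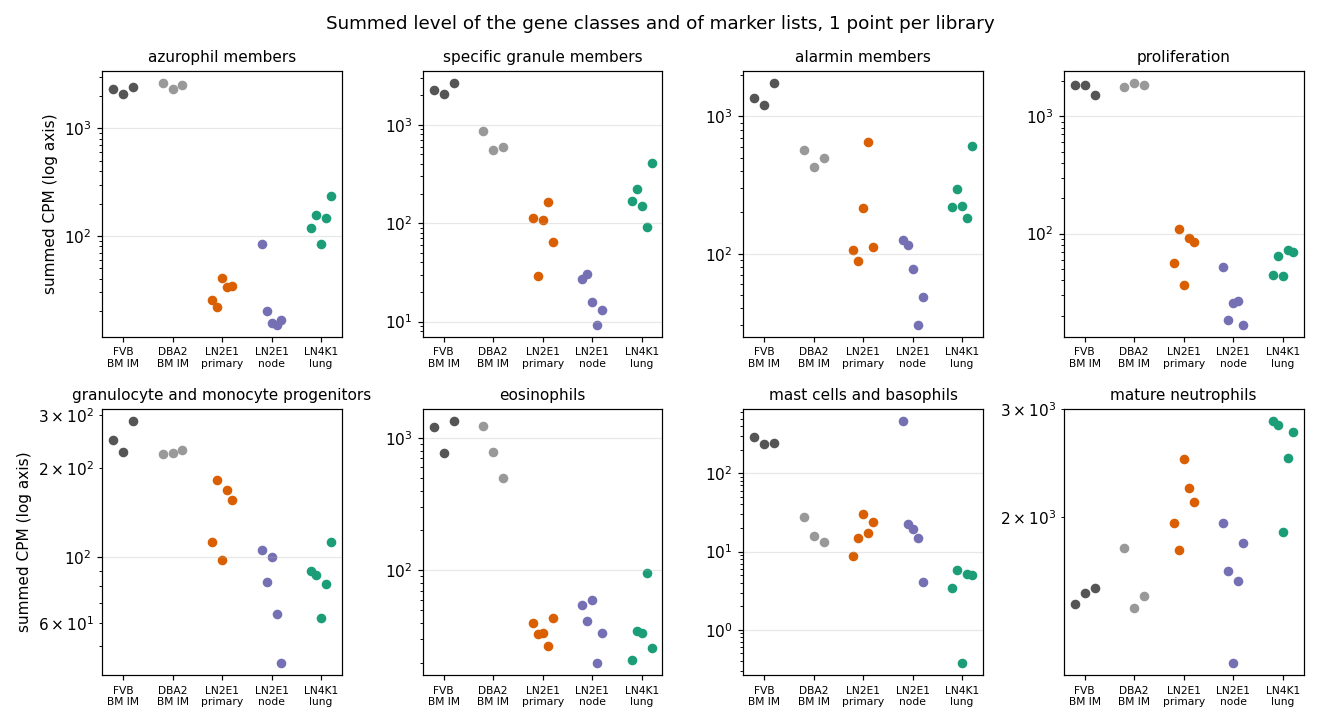
Summed CPM of the 3 classes and of marker lists of other cell states in every library, on log axes, by group. The azurophil sum stood at 2107 to 2649 CPM in BM IMs and 15 to 233 CPM in TIMs, and the proliferation sum at 1510 to 1924 and 16.7 to 110 CPM, while the mature neutrophil sum stood at 1425 to 1783 CPM in BM IMs and 1159 to 2870 CPM in TIMs.

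Markers of other cells and states did not all move the same way. Their counts stand beside the shares over all genes given above. Some lists share genes, since Ms4a3, Fcnb and Myb are counted both as progenitor genes and in lists described above. The 10 proliferation genes were lower in each tumor comparison, 10 of 10, with sums of 1510 to 1924 CPM in BM IMs and 16.7 to 110 CPM in TIMs. Of 12 progenitor genes, 7 were lower and 3 higher in primary tumors, and 6 lower and 1 higher in lymph nodes and in LN4K1 lungs. Their sums were 222 to 287 CPM in BM IMs, 98.0 to 182 CPM in primary tumors, 44.0 to 106 CPM in lymph nodes and 62.2 to 112 CPM in LN4K1 lungs. Eosinophil genes were lower in 7, 7 and 6 of 9 tested, with sums of 494 to 1341 CPM in BM IMs and 19.9 to 94.9 CPM in TIMs, and the defining granule gene Prg2 went from 344 to 862 CPM in BM IMs to at most 0.221 CPM in LN2E1 TIMs and 59.6 CPM in LN4K1 lungs. Prg2, at a mean of 0.00242 CPM in lymph nodes, entered that test through its marrow level and could come out only as lower. The same holds for other genes of these lists that were near 0 CPM in TIMs. The part of these cells and states in the fall of the granule genes was not tested.

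Of the mature neutrophil genes, 8 were higher and 1 lower of 10 tested in primary tumors, 5 higher and 2 lower of 9 in lymph nodes, and 4 higher and 1 lower of 9 in LN4K1 lungs, with sums of 1425 to 1783 CPM in BM IMs, 1773 to 2487 in primary tumors, 1159 to 1962 in lymph nodes and 1894 to 2870 in LN4K1 lungs. Several of its genes are also transcribed in monocytes. Stfa2l1, a stefin gene of neutrophils, had at most 0.0536 CPM in BM IMs and between 0.14 and 3.74 CPM in primary tumors. It had at most 0.914 CPM in lymph nodes and 0.48 CPM in LN4K1 lungs. Retnlg, another gene of the list, was lower in LN4K1 lungs (log2 fold change -2.03 ± 0.51, adjusted p = 0.0185). Its primary tumor values (12.3 to 52.6 CPM) overlapped with those of FVB BM IMs (28.7 to 55.9 CPM). Lymph node libraries had 0.0242 to 5.8 CPM of Retnlg, which entered that test through its marrow level and could come out only as lower. Mast cell and basophil genes summed to 236 to 287 CPM in FVB BM IMs, 13.4 to 27.9 in DBA2 BM IMs, 8.91 to 30.2 in primary tumors and 0.378 to 5.9 in LN4K1 lungs. In lymph nodes their sum was 464 CPM in replicate 1, which had the highest Mpo and Ctsg of its group, and 4.11 to 22.6 CPM in the others. Inflammatory monocyte genes were 5 higher and 3 lower of 9 in primary tumors, 4 and 4 in lymph nodes, and 4 and 2 in LN4K1 lungs. Epithelial genes summed to 1.35 to 3.97 CPM in BM IMs and to 213 to 801 CPM in primary tumors, 10.0 to 141 in lymph nodes and 7.75 to 155 in LN4K1 lungs. Their part was not tested.

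Genes whose log2 CPM most resembled the mean of each class over the 21 libraries were sought among 10682 genes, and the correlations describe libraries that share the same groups. For the azurophil class they were 2700094K13Rik (Pearson r = 0.978), Brd3 (0.976), Hist1h2ad (0.972), Prg2 (0.968) and Pmf1 (0.968). For the specific granule class they were Hist1h1e (0.938), Tsen34 (0.935), Nfic (0.921), Hist1h1d (0.919) and Tmem154 (0.913). For the alarmin class they were Rnaseh2a (0.888), Hist1h1e (0.884), Gltpd1 (0.878), Jmjd8 (0.878) and Lsm2 (0.871). Replication-dependent histone genes appeared for all 3 classes, and 1 granule gene, that of eosinophils, appeared for the azurophil class.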

How the data were processed

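RNA from sorted IMs was amplified from low input (SMART, Nextera XT, no strand). The authors trimmed reads with BBDuk, aligned them to mm10 with BBMap, and counted them with featureCounts 1.5.2, settings not given in the sources used here. SAMtools 1.8 is also named in the submitters' processing notes. The deposited values are raw counts for 23420 symbols in 21 libraries, grouped by their labels, and no column was without a sample. No pair of libraries of a group agreed within sampling noise (at least 53.0 in mean chi-square per gene, where noise alone gives about 1).

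The libraries of each comparison were fitted apart in edgeR 4.0.16 (R 4.3.3) with TMM factors, its default filter (minimum count 10, minimum total 15) and the robust quasi-likelihood test. P-values were adjusted by Benjamini and Hochberg over all genes tested, with a threshold of 0.05. Standard errors are the log2 fold change divided by the square root of F, an approximation. CPM used TMM factors over 21 libraries, and log2 CPM a prior count of 2. RPKM divided CPM by the exonic length in GENCODE vM21. Permutation tests were exact and two-sided, on mean log2 CPM or log2 ratios (scipy 1.17.1, Python 3.11.15, with numpy 2.4.6, pandas 2.3.3 and matplotlib 3.10.9). limma 3.58.1 was loaded by edgeR. Total counts lay between 80772922 and 101043568, and limits from counts cover counting error only.

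The members, the lists and the motif words were chosen with earlier results of these data known. All members are named. Of each list, at most 4 called genes per comparison with the largest absolute log2 fold change among those with mean log2 CPM above 0 could be named, besides Ctsc, Srgn, Serpinb1a, Slpi, Ms4a3, Cebpe and Cfd, and the libraries' markers (Cxcr2, Mmp9, Prss34, Mcpt8, Stfa2l1) were named after their values were seen. Itgb2l, BC100530, Ager and Gfi1 were named only for the limit of their tests. Cfd was near 0 in FVB BM IMs and lymph node TIMs (0.0279 and 0.155 CPM) and is not described further.

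Alternatives were DESeq2 1.42.0, its size factors in edgeR, library totals without TMM (chosen after seeing the data), at least 1 count in total, at least 10 counts in every library, all 5 groups in 1 fit, the replicate number as a block, and leaving out each library. Protein sequences were not used here.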

Additional observations from a re-analysis of the deposited data

Results flagged for a closer look

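For 8 genes the change from marrow differed between LN2E1 primary tumors and LN4K1 lungs by a test of the difference itself (edgeR, adjusted p under 0.05). In log2 units, primary tumor minus lung, these were -3.86 for Elane, -4.2 for Mpo, -1.33 for Prtn3, -1.95 for Ctsg, -5.8 for Camp, -4.98 for Ngp, -1.57 for Lcn2 and -2.19 for S100a8. Cell line, strain, route and tissue differ between these models and cannot be told apart.

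A single library stood far from the others of its group in 2 of 33 sets of 5 libraries tested with Dixon's ratio on log2 CPM or the log2 ratio of S100a8 to S100a9, the gap to the nearest library over the whole range (critical value 0.71), where chance gives about 1 in 20. Camp in lymph node replicate 1 had a ratio of 1.0, from 2 counts (0.0242 CPM) against 0 in the others, which is under the 3-count limit. Ngp in lymph node replicate 2 had a ratio of 0.823, from 14.9 CPM against at most 0.0484 CPM in the others.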

How the results depend on the processing

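Of the alternative values for single genes and ratios, 758 kept their direction and their side of the threshold, 38 lost a call, 11 gained one and 11 changed sign, none of the last being a call. The counts of genes past the study's thresholds moved most. With DESeq2 they were 7 in primary tumors, 5 in LN4K1 lungs, 2 for lymph nodes against primary tumors and 5 for DBA2 against FVB marrow, where edgeR gave 4, 2, 0 and 0. With at least 1 count in total they were 3 in lymph nodes and 4 in LN4K1 lungs, and with all 5 groups in 1 fit 8 in lymph nodes. At an adjusted p under 0.05, 1 fit of all groups called 5 genes lower in LN4K1 lungs, 0 lower in DBA2 marrow and 5 differences between models, and a filter of 10 counts in every library left 5 genes in lymph nodes, all 5 lower.

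Leaving out 1 library at a time gave 9 to 10 genes lower in primary tumors, 10 in lymph nodes in every fit (3 of them tested through their marrow level), 5 to 9 in LN4K1 lungs, 2 to 4 between LN2E1 sites, 5 to 6 in DBA2 marrow (with 0 to 1 higher) and 5 to 9 differences between models. Past the study's thresholds it gave 3 to 5 in primary tumors, 2 to 8 in lymph nodes, 0 to 4 in LN4K1 lungs, 0 between LN2E1 sites and 0 to 1 in DBA2 marrow. The 5 differences came without DBA2 BM IM replicate 2 or 3 or lung replicate 5, and the 8 in lymph nodes without lymph node replicate 1.

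Replicate numbers did not pair the libraries (correlations of same-numbered deviations from -0.154 to 0.0843). With the number as a block, 0 genes passed the study's thresholds in primary tumors, lymph nodes and LN4K1 lungs, and 0 were lower between LN2E1 sites (lowest adjusted p = 0.051, with 4 of 9 at an unadjusted p under 0.05).

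The sign of Lcn2 in LN4K1 lungs turned with library totals (-0.17), the block (-0.13) and without lung replicate 5 (-0.22; range over left-out libraries -0.22 to 0.39). Between LN2E1 sites it turned for Mpo (-1.91 with the block, -2.1 without lymph node replicate 1, range to 2.16), Ctsg (-0.07 without it, range to 2.03) and Ngp (0.22 without primary tumor replicate 1, range from -9.33). For DBA2 against FVB marrow it turned for Elane (-0.00073 in 1 fit of all groups, -0.07 without FVB replicate 2, range to 0.1) and Prtn3 (-0.03 without FVB replicate 3, range to 0.11), and for the Ltf difference between models (0.26 without lung replicate 5, range from -0.9). The cause was not tested.

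Without TMM, the median of all genes moved from -0.04 to -0.33 in lymph nodes, 0.03 to -0.19 in LN4K1 lungs and 0.08 to -0.09 in primary tumors. Calls higher and lower over all genes went from 2685 and 2284 to 1985 and 3535 in lymph nodes, from 1892 and 1497 to 1406 and 2540 in LN4K1 lungs, and from 829 and 749 to 455 and 958 between LN2E1 sites.

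Depth limits Camp, Ngp, Ltf, Mpo and Elane in lymph nodes, where values at or under 3 counts bound the level but not the fold. With 3 marrow libraries a strain, single libraries decide the calls nearest the threshold.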
